A study of Mus musculus with 12 samples.

Results

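In hepatocytes labelled Hnf4a KO, 40 genes nearly lost their RNA, and their values are described here. Mouse primary hepatocytes, liver cells taken into culture, were profiled by stranded RNA sequencing in 4 groups of 3 libraries: Hnf4a KO cells given the compound MJ041, WT cells given MJ041, Hnf4a KO cells given DMSO vehicle and WT cells given DMSO vehicle. The series title calls MJ041 a candidate ligand and gene induction in WT and KO cells its question. The labels give no dose or duration for MJ041, do not state how or in which exons Hnf4a was deleted, and do not say whether the 3 libraries of a group came from separate animals, so that p-values here measure the spread between these libraries, which may be technical. Levels are given in CPM, the count of a gene divided by the total of its library and multiplied by 1000000. Genes were chosen by their levels in the vehicle libraries: a gene belonged to the set when it had at least 5 CPM in each of the 3 WT vehicle libraries and a mean in the KO vehicle libraries under 8% of the WT vehicle mean. Symbols of the Cyp, Ugt, Sult, Ces, Apo and Slc22 families and predicted genes named Gm with a number were left out. Of 55414 genes in the count table, 10181 had the level, 74 had the level and the fold, 34 of these were left out by symbol (19 of them Cyp genes), and 40 remained. All 40 passed the filter on low counts that left 14919 genes for testing.

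HNF4A is a nuclear receptor of the liver, gut and kidney that binds DNA as a homodimer at pairs of directly repeated half-sites and activates transcription there. In hepatocytes it is known as a central activator of the genes for plasma proteins, lipid carriers and enzymes of amino acid and xenobiotic metabolism. Fatty acids are known to occupy its ligand pocket.

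Because the vehicle libraries chose the genes, the difference between KO and WT vehicle cells is a description and no result: all 40 genes were lower there, as the rule demands, with log2 fold changes from -7.38 to -3.68 (26.9% of all tested genes were called lower). The 6 MJ041 libraries were not used in the choice. The comparison of KO with WT cells under MJ041 tests the same difference in those libraries. The labels do not say whether MJ041 and vehicle libraries of a genotype share cell preparations. If they do, this test is not independent of the choice. Its spread was also estimated over all 12 libraries, the vehicle ones included. In the MJ041 libraries all 40 genes were lower in KO cells at an adjusted p below 0.05 (edgeR quasi-likelihood test, Benjamini-Hochberg adjustment over 14919 genes), where 27.6% of all tested genes were called lower and 26.8% higher. Every KO library lay below every WT library for all 40 genes, against 25.9% of all tested genes. The median log2 fold change, KO over WT, was -5.45 over the 40 genes and 0.02 over all tested genes, and the 40 values ran from -8.37 to -3.06. A log2 fold change under -5 was reached by 25 of the 40 genes and by 0.523% of all tested genes. The largest adjusted p among the 40 was 3.2e-05, for the receptor gene Hcar2.

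Promoters of the genes that held letters of HNF4 or HNF1 motifs are shown first, since HNF4A acts through DNA. Promoter sequences from RefSeq (build GRCm38.p6, 250 bases before to 50 after a start) were found for 32 of the 39 genes with a symbol. Motifs of exact letters were searched on both strands: CAAAGTCCA, CAAAGTTCA and AGGTCAAAG, each of which is part of an HNF4-type repeat, TTAATNATT for HNF1, a partner factor of the liver, and the TATA box TATAAA. Letters are printed from the gene's own strand and capitals mark the matches to the first 4 motifs. Aspdh, which encodes an aspartate dehydrogenase domain protein, is shown at chr7:44465185-44465434 (plus strand) and holds CAAAGTCCA from 52 bases before the start and CAAAGTTCA from 45 bases before it, so that both matches overlap by 2 bases. Haao, 3-hydroxyanthranilate dioxygenase, is shown at chr17:83846791-83847040 (minus strand) with AGGTCAAAG on the opposite strand. F13b, the carrier subunit of clotting factor XIII, is shown at chr1:139501457-139501706 (plus strand), and Prodh2, hydroxyproline dehydrogenase, at chr7:30493408-30493657 (plus strand), both for the HNF1 letters. For Hsd3b3, a hydroxysteroid dehydrogenase, the match lies just past the start, and 30 bases round it are shown at chr3:98763105-98763134 (minus strand), with CAAAGTCCA on the opposite strand.
Aspdh: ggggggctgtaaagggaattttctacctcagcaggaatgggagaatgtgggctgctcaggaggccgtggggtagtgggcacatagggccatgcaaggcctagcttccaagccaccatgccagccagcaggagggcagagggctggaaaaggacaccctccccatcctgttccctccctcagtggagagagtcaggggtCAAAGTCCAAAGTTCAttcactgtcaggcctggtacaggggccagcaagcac
Haao: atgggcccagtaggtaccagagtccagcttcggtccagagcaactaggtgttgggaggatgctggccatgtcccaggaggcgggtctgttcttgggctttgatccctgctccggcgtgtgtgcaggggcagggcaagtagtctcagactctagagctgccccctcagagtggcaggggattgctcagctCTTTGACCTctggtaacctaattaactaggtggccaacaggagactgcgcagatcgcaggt
F13b: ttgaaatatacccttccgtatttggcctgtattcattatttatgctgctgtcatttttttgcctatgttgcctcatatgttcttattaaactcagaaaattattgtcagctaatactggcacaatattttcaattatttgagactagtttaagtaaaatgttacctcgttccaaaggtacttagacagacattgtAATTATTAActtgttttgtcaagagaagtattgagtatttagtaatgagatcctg
Prodh2: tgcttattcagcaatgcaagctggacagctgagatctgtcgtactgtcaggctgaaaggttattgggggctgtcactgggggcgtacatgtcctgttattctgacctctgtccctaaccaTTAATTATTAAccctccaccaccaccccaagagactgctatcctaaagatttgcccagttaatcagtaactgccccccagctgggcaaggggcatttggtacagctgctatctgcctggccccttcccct
Hsd3b3: tcactgaaagTGGACTTTGaagcttccagc
Any of the 3 HNF4 motifs occurred in the promoters of 3 of the 32 genes, 9.38%, of 1.57% of the other tested genes and of 1.46% of all genes in the promoter table. The HNF1 letters occurred in 2 of the 32 genes, 6.25%, against 1.15% of the other tested genes and 1.72% of all. TATAAA occurred in 6 of the 32 genes, 18.8%, against 9.86% and 15.7%, and those 6 were Fabp1, Hrg, Rdh16, Rdh16f2, Ripply1 and Sprr1b. These matches describe letters in a short window and were not tested as binding sites.

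**Figure D1:**
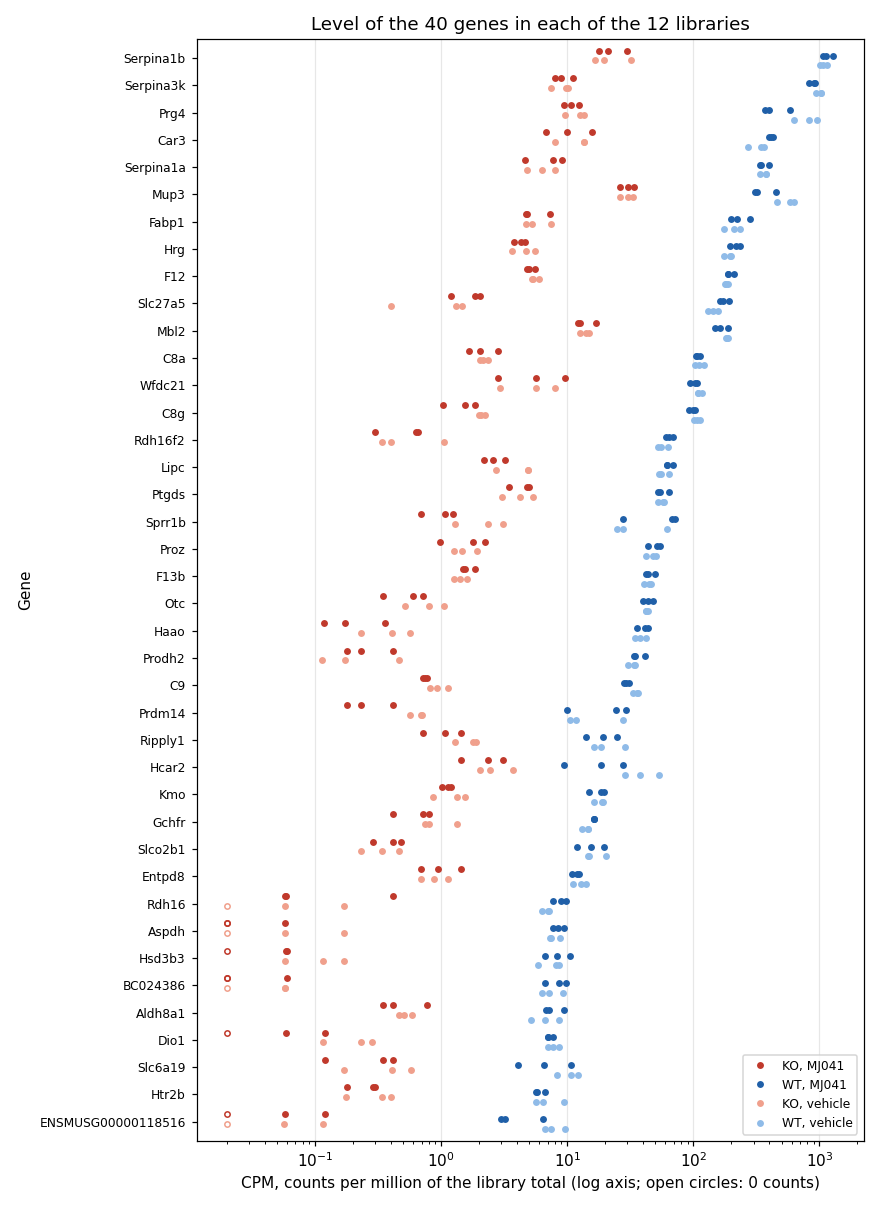
Level of each of the 40 genes in every library in CPM (horizontal log axis), 1 row per gene ordered by level in the WT MJ041 libraries. Points are single libraries, dark red for KO MJ041, dark blue for WT MJ041, light red for KO vehicle and light blue for WT vehicle, with 0 counts drawn as open circles at the left edge. In each row the KO points lie left of the WT points, and within the MJ041 libraries they come closest for Hcar2, where the lowest WT MJ041 library is 3.02-fold above the highest KO MJ041 library.

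The deleted gene itself kept much of its RNA. Hnf4a had 68.3 ± 7.83 CPM in KO MJ041 cells and 156 ± 13.9 CPM in WT MJ041 cells, and 65.8 ± 3.03 CPM in KO vehicle cells and 124 ± 11.6 CPM in WT vehicle cells (SD, n = 3 each). KO cells held 41.7% of the WT level under MJ041 (log2 fold change -1.26 ± 0.10 SE, adjusted p = 6.3e-07) and 52.7% under vehicle. Counts over the whole gene do not show whether the deleted exons were transcribed. Library totals lay between 16740761 and 17902832 counts. Hepatocyte markers (12 genes) summed to 32520 to 34010 CPM in KO MJ041 libraries and to 64670 to 75740 CPM in WT MJ041 libraries. Such a sum follows its most abundant genes, and the single markers are not given here. Of abundant liver RNAs named below, Alb was lower in KO MJ041 cells, Fgb did not pass the test and C3 was higher. Lymphocyte and neutrophil markers summed to at most 3.07 CPM in any of the 12 libraries. Markers of Kupffer cells (18 genes, Cd163 at 0 in both groups) summed to 518 to 545 CPM in KO MJ041 and 185 to 424 CPM in WT MJ041 libraries, and markers of bile duct cells (14 genes) to 585 to 775 CPM in KO MJ041 and 276 to 411 CPM in WT MJ041 libraries. Endothelial markers (18 genes) summed to 315 to 374 CPM in KO MJ041 and 173 to 343 CPM in WT MJ041 libraries, and stellate cell markers (19 genes) to 190 to 220 CPM in KO MJ041 and 98.3 to 168 CPM in WT MJ041 libraries. In these bulk libraries fewer hepatocytes and less RNA per hepatocyte cannot be told apart, and the part of other cells in the values below was not tested. The 40 genes together took 0.0140 to 0.0171% of the counts of a KO MJ041 library and 0.528 to 0.578% of a WT MJ041 library.

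Among clotting genes, 4 were nearly lost. F12, factor XII, which starts the contact pathway of coagulation, had 5.56, 5.0 and 4.81 CPM in the KO MJ041 libraries, against 211, 188 and 189 CPM in the WT MJ041 libraries. Its log2 fold change was -5.32 ± 0.09 (adjusted p = 9.9e-13), with KO libraries and WT libraries each tightly grouped. Hrg, histidine-rich glycoprotein, a plasma protein that binds heparin and plasminogen, had 4.66, 3.80 and 4.33 CPM in KO and 235, 219 and 194 CPM in WT libraries under MJ041 (-5.73 ± 0.14; values in brackets are log2 fold changes ± SE). F13b averaged 1.63 ± 0.18 CPM in KO and 45.4 ± 4.19 CPM in WT cells (-4.86 ± 0.13). Proz, protein Z, a cofactor in the inhibition of factor Xa, averaged 1.66 ± 0.63 and 49.7 ± 5.51 CPM in KO and WT cells (-4.97 ± 0.19). Other clotting and fibrinolysis genes did not move together: of 25 tested, 8 were lower and 10 higher in KO cells. The fibrinogen chain genes Fgb (0.03 ± 0.11, adjusted p = 0.82) and Fga (-0.19 ± 0.13, adjusted p = 0.23) did not pass the test, and Hpn, the membrane protease hepsin, was higher in KO cells at 154 ± 6.05 CPM, against 59.3 ± 10.1 CPM in WT cells.

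Complement showed a split within a single protein complex. C8a, C8g and C9 encode parts of the membrane attack complex, the pore that complement inserts into target membranes. C8a had 2.81, 1.67 and 2.02 CPM in KO MJ041 libraries and 112, 104 and 106 CPM in WT MJ041 libraries (-5.70 ± 0.13). C8g had 1.85, 1.04 and 1.54 CPM in KO and 98.7, 92.2 and 103 CPM in WT libraries (-6.12 ± 0.11), and C9 had 0.777, 0.748 and 0.712 CPM in KO and 29.2, 28.3 and 30.8 CPM in WT libraries (-5.35 ± 0.12). For these 3 genes the lowest WT library stood more than an order of magnitude above the highest KO library. C8b, the beta chain of C8, went the other way, with 84.8, 101 and 92.6 CPM in KO and 59.3, 51.6 and 57.4 CPM in WT libraries (0.66 ± 0.13, adjusted p = 6.2e-04). Hc, complement C5, did not pass the test (0.22 ± 0.09, adjusted p = 0.072), nor did C6 (1.72 ± 0.69, adjusted p = 0.051), which was under 1 CPM in all 6 libraries. KO cells therefore held RNA for the beta chain of C8 above the WT level and for its alpha and gamma chains at 2.01% (C8a) and 1.51% (C8g) of it. Mbl2, a mannose-binding lectin that starts the lectin pathway, kept more RNA than most of the 40 genes, at 17, 12.6 and 12.2 CPM in KO and 187, 150 and 164 CPM in WT libraries (-3.65 ± 0.12), and its relative Mbl1 was also lower (-1.62 ± 0.15, adjusted p = 1.7e-06). Of the 21 other complement and lectin genes tested, 6 were lower and 6 higher in KO cells (28.6% each), near the shares over all tested genes. Among them were Cfi, complement factor I, at 41.0 ± 7.79 CPM in KO and 282 ± 19.1 CPM in WT cells, and C3, the central complement protein, at 15040 ± 300.2 CPM in KO and 5235 ± 480 CPM in WT cells.

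Serine protease inhibitors of the serpin family included the most abundant RNAs of the set. Serpina1b, an alpha-1-antitrypsin gene, had 29.9, 17.9 and 21.0 CPM in KO MJ041 libraries and 1284, 1124.5 and 1074.9 CPM in WT MJ041 libraries (-5.73 ± 0.24). Serpina1a had 9.02, 4.66 and 7.78 CPM in KO and 396, 346 and 338 CPM in WT libraries (-5.73 ± 0.19). Close copies of these genes kept most of their RNA: Serpina1d was lower (-0.73 ± 0.12, adjusted p = 1.4e-04), and Serpina1c (0.09 ± 0.08, adjusted p = 0.40) and Serpina1e (-0.11 ± 0.28, adjusted p = 0.75) did not pass the test. The 5 genes summed to 1450 ± 216 CPM in KO and 3143 ± 179 CPM in WT MJ041 cells. Reads from such near-identical copies can be assigned to the wrong one or dropped, and how the counting treated them is not given in the sources used here, so the split within the family is uncertain. Serpina3k, a relative of human antichymotrypsin, had 11.2, 8.0 and 8.9 CPM in KO and 898, 819 and 916 CPM in WT libraries (-6.62 ± 0.12). Serpina3m, whose exons overlap Serpina3k on the same strand in the annotation at hand, was lower by -1.36 ± 0.17 and Serpina3n by -0.48 ± 0.06, on the log2 scale.

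The other secreted products differed in how much was left. Lipc, hepatic lipase, had 2.57, 2.19 and 3.21 CPM in KO MJ041 libraries and 68.4, 61.3 and 61.8 CPM in WT MJ041 libraries (-4.65 ± 0.18). Prg4, the lubricant proteoglycan lubricin, had 12.5, 9.43 and 10.7 CPM in KO and 370, 400 and 587 CPM in WT libraries (-5.44 ± 0.21). Ptgds, lipocalin-type prostaglandin D synthase, averaged 4.41 ± 0.82 CPM in KO and 57.0 ± 6.36 CPM in WT cells (-3.76 ± 0.16). Wfdc21, a small secreted protein with a whey acidic protein domain, was the least even of these in KO cells, with 2.81, 9.61 and 5.64 CPM, against 106, 93.5 and 104 CPM in WT libraries (-4.13 ± 0.30). Mup3, a major urinary protein that carries pheromones, had 26.1, 33.9 and 30.2 CPM in KO libraries, the highest KO mean of the 40 genes, and 321, 309 and 449 CPM in WT libraries (-3.64 ± 0.16). The other major urinary protein genes tested, Mup20 (-1.92 ± 0.26), Mup17 (-1.39 ± 0.53) and Mup21 (-1.38 ± 0.54), were also lower in KO cells, from WT levels of at most 4.07 CPM, and copies of this family can share reads as well. Of 54 other secreted plasma protein genes tested, 24 were lower (44.4%) and 22 higher (40.7%), against 27.6% and 26.8% of all tested genes. Alb, albumin, had 19050 ± 459 CPM in KO and 48630 ± 4266 CPM in WT cells, far from lost, and Serpina6, the corticosteroid-binding globulin, was higher in KO cells at 110.5 ± 13.2 CPM, against 8.68 ± 2.11 CPM in WT cells.

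Genes for some steps of tryptophan breakdown were nearly lost and those for others were not. Kmo, kynurenine 3-monooxygenase, which hydroxylates kynurenine, had 1.13, 1.21 and 1.01 CPM in KO MJ041 libraries and 19.5, 14.9 and 18.6 CPM in WT MJ041 libraries (-4.04 ± 0.19). Haao, which opens the ring of 3-hydroxyanthranilate, had 0.358, 0.173 and 0.119 CPM in KO and 43.4, 35.8 and 41.2 CPM in WT libraries (-7.56 ± 0.22). Aldh8a1, which oxidises the aldehyde that follows on the side branch, had 0.418, 0.345 and 0.772 CPM in KO and 9.44, 6.78 and 7.14 CPM in WT libraries (-3.98 ± 0.30). Of the 8 other kynurenine pathway genes tested, Aadat, an aminotransferase (-3.89 ± 0.35), and Ido2, a dioxygenase of the first step (-1.82 ± 0.38), were lower, while Kynu, kynureninase (1.01 ± 0.13), Kyat1, a transaminase (0.87 ± 0.22), and Afmid, a formamidase (0.46 ± 0.16), were higher. Tdo2, the main dioxygenase of the first step in liver, did not pass the test (-0.24 ± 0.18, adjusted p = 0.27), nor did Qprt, which leads to NAD (0.06 ± 0.09, adjusted p = 0.65), or Acmsd (0.38 ± 0.23, adjusted p = 0.18). Kynu, which acts between Kmo and Haao, had 21.3, 20.1 and 21.9 CPM in KO and 11.3, 10.3 and 8.39 CPM in WT libraries.

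In the urea cycle a single gene of 6 was nearly lost. Otc, ornithine transcarbamylase, which joins ornithine and carbamoyl phosphate in mitochondria, had 0.717, 0.345 and 0.594 CPM in KO MJ041 libraries and 47.4, 43.8 and 39.99 CPM in WT MJ041 libraries (-6.36 ± 0.18). Cps1, which supplies carbamoyl phosphate, had 109, 107 and 106 CPM in KO and 131, 84.1 and 112 CPM in WT libraries and did not pass the test (-0.09 ± 0.15, adjusted p = 0.63), nor did Arg1, arginase (0.10 ± 0.25, adjusted p = 0.76). Ass1 (-0.70 ± 0.09), Asl (-0.62 ± 0.08) and Nags (-0.84 ± 0.07), which make argininosuccinate, split it and make the activator of Cps1, were lower by less than 1 on the log2 scale. Prodh2, which starts hydroxyproline breakdown, had 0.418, 0.230 and 0.178 CPM in KO and 41.6, 33.9 and 34.3 CPM in WT libraries (-7.09 ± 0.24), and its relative Prodh, proline dehydrogenase, had 19.3 ± 1.45 and 41.1 ± 2.69 CPM in KO and WT cells (-1.16 ± 0.08). Gchfr, the feedback regulator of GTP cyclohydrolase, had 0.717, 0.805 and 0.416 CPM in KO and 16.3, 16.3 and 16.4 CPM in WT libraries (-4.71 ± 0.21). Over the list of urea cycle and amino acid genes, 43 of the 67 others tested were lower (64.2%) and 11 higher (16.4%). Over all tested genes 27.6% were lower and 26.8% higher.

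Under MJ041 Aspdh had the lowest fold change of the 40 (-8.37), close to that of BC024386 (-8.35). In the vehicle libraries that chose the genes, Aspdh had -6.55 and BC024386 had -7.38. Aspdh had 1 count in all 3 KO MJ041 libraries together and 434 counts in the 3 WT MJ041 libraries, a WT to KO ratio of 434 with an exact 95% interval from 77.4 to 17160. BC024386, a long non-coding RNA gene, likewise had 1 and 428 counts in KO and WT libraries, a ratio of 428 (76.3 to 16920). Hsd3b3 had 2 and 434 counts (217, interval 59.6 to 1795). Dio1, the type 1 deiodinase that activates thyroid hormone, had 3 and 371 counts (124, interval 41.9 to 602), and the gene with the identifier ENSMUSG00000118516 and no symbol had 3 and 214 counts (71.3, interval 24.1 to 348). These intervals cover counting error only, and for these 5 genes the KO level is at the edge of what libraries of this depth can measure. Without the 1 KO MJ041 library that held the most counts, fitted values were -10.24 for Aspdh, -10.22 for BC024386, -7.71 for Dio1 and -6.92 for ENSMUSG00000118516, against -8.37, -8.35, -6.85 and -6.05 with it, and fitted values of genes with so few counts are no bounds. Dio3, the deiodinase that inactivates thyroid hormone, was higher in KO cells at 8.92 ± 1.79 CPM, against 2.91 ± 1.29 CPM in WT cells (1.54 ± 0.30).

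Fabp1, Slc27a5, Rdh16f2, Rdh16, Hsd3b3 and Dio1, carriers and enzymes of lipids, bile acids, retinoids and hormones, kept at most 2.39% of the WT level. Fabp1, the liver fatty acid binding protein, had 7.29, 4.83 and 4.75 CPM in KO MJ041 libraries and 283, 200 and 224 CPM in WT MJ041 libraries (-5.46 ± 0.21). Its relatives Fabp2 (-2.43 ± 0.23) and Fabp5 (-2.07 ± 0.18) were lower by less, and Fabp4 and Fabp7 did not pass the test. Slc27a5, the ligase that joins bile acids to coenzyme A, had 2.03, 1.21 and 1.84 CPM in KO and 191, 173 and 161 CPM in WT libraries (-6.76 ± 0.20). In its family Slc27a2 (-0.94 ± 0.12), Slc27a1 (-0.70 ± 0.15) and Slc27a4 (-0.59 ± 0.06) were lower by less than 1 on the log2 scale, and Slc27a3 was higher (1.61 ± 0.30). Rdh16f2 and Rdh16, neighbouring genes of the retinol dehydrogenase family, had 0.299, 0.633 and 0.653 CPM and 0.418, 0.0575 and 0.0594 CPM in KO libraries, against 69.3, 61.2 and 64.6 CPM and 9.85, 8.96 and 7.68 CPM in WT libraries (-6.99 ± 0.22 and -5.66 ± 0.43). The first KO library stood above the other two for Rdh16, and without it the value for Rdh16 was -7.15. Rdh7, next to Rdh16f2, kept far more, at 32.4 ± 3.79 CPM in KO and 134 ± 13 CPM in WT cells (-2.11 ± 0.12), and the copies of this cluster can share reads. Of 31 other steroid, bile acid and retinoid genes tested 16 were lower and 10 higher, and of 58 other acyl-CoA and fatty acid genes 29 were lower and 16 higher.

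**Figure D2:**
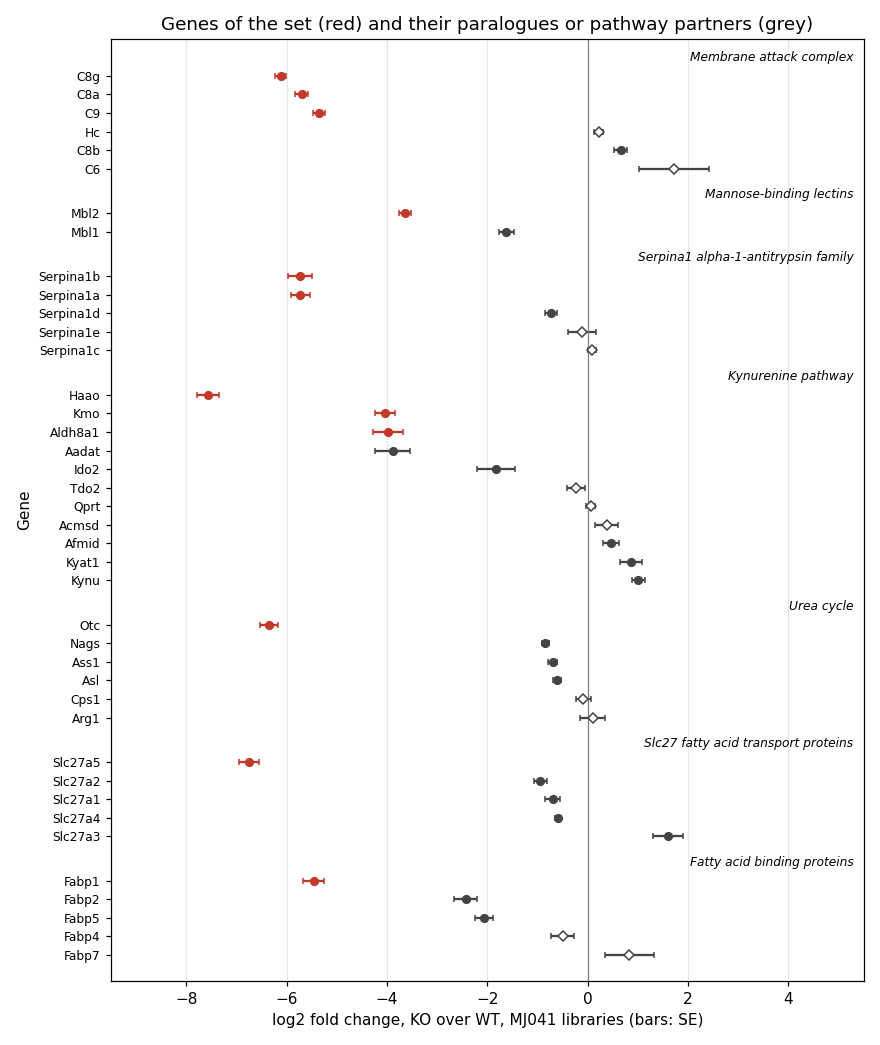
Log2 fold change of KO over WT cells in the MJ041 libraries (horizontal axis, bars are SE, 3 libraries per group) for 7 families or pathways, 1 row per gene. Red marks genes of the set and grey their relatives or partners, filled circles an adjusted p below 0.05 and open diamonds all others. Within the membrane attack complex, C8a, C8g and C9 lie below -5 while C8b lies at 0.66, and within the urea cycle Otc lies at -6.36 while the other 5 lie between -0.84 and 0.10.

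The remaining enzymes, transporters and receptors kept between 2.51 and 12.5% of the WT level. Car3, a cytosolic carbonic anhydrase, had 15.6, 6.79 and 10.03 CPM in KO MJ041 libraries and 415, 425 and 399.6 CPM in WT MJ041 libraries (-5.33 ± 0.24). Among its relatives Car5a, the mitochondrial form, was lower (-5.58 ± 0.53), from 3.01 ± 0.94 CPM in WT MJ041 cells. Its WT vehicle level, on which the rule was set, is not given here. Car14 (2.08 ± 0.17) and Car12 (4.66 ± 0.85) were higher in KO cells. Slco2b1, an organic anion uptake transporter, had 0.478, 0.288 and 0.416 CPM in KO and 15.5, 11.9 and 19.6 CPM in WT libraries (-5.35 ± 0.27). Entpd8, which splits nucleotides at the bile canaliculus, had 1.43, 0.690 and 0.950 CPM in KO and 11.9, 10.9 and 12.4 CPM in WT libraries (-3.58 ± 0.22). Hcar2, the receptor for niacin and beta-hydroxybutyrate, was the least reduced, with 3.11, 1.44 and 2.37 CPM in KO and 18.6, 9.37 and 27.6 CPM in WT libraries (-3.06 ± 0.40), and its lowest WT library stood only 3.02-fold above its highest KO library, the closest approach among the 40. Slc6a19, a neutral amino acid transporter best known from gut and kidney, averaged 0.29 ± 0.15 CPM in KO and 7.10 ± 3.40 CPM in WT cells (-4.61 ± 0.45), and Htr2b, a serotonin receptor, 0.25 ± 0.07 and 6.02 ± 0.56 CPM (-4.59 ± 0.31). Of 58 other membrane transporters tested 31 were lower (53.45%) and 10 higher (17.24%). Of 44 other receptors 19 were lower (43.18%) and 15 higher (34.09%). Over all tested genes 27.6% were lower and 26.8% higher.

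Prdm14, Sprr1b and Ripply1 are best known from tissues other than liver. Prdm14, a regulator of germ cells and pluripotent cells, had 0.179, 0.230 and 0.416 CPM in KO MJ041 libraries and 9.96, 24.5 and 29.1 CPM in WT MJ041 libraries (-6.28 ± 0.60). Sprr1b, a protein of the cornified envelope of squamous epithelia, had 1.08, 0.690 and 1.25 CPM in KO and 27.7, 68.0 and 71.1 CPM in WT libraries (-5.84 ± 0.53). Its neighbour and relative Sprr1a had 5753 CPM in KO and 4658 CPM in WT MJ041 cells and did not pass the test (0.24, adjusted p = 0.066). How the counting treated reads that match both genes is not given in the sources used here. Ripply1, a repressor in the embryonic segments that form vertebrae and muscle, had 1.08, 1.44 and 0.712 CPM in KO and 14.0, 19.0 and 24.7 CPM in WT libraries (-4.20 ± 0.31). In Prdm14, Sprr1b and Ripply1 the first WT library was the lowest and the KO and WT libraries did not overlap. They were among the 7 genes with a coefficient of variation over 25% in WT MJ041 libraries, with coefficients in WT MJ041 and WT vehicle libraries of 47.1 and 57.8% for Prdm14, 43.5 and 53.9% for Sprr1b and 27.9 and 31.7% for Ripply1, against medians of 9.70 and 9.79% over the 40 genes.

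Per length, the set spanned a wide range of abundance. In CPM per kilobase of annotated exon, WT MJ041 levels ran from 1.33 for Hsd3b3 to 481 for Serpina1b, followed by Serpina3k at 427 and Fabp1 at 426. On the same scale the KO MJ041 levels ran from 0.00621 for Hsd3b3 to 28.1 for Mup3, and Wfdc21 (13.9), Mbl2 (12.8) and Fabp1 (10.2) came next. Only 39 genes have a length in the annotation at hand. Of them 38 are protein coding and BC024386 is not.

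The share of RNA left in KO cells ranked the genes alike with and without MJ041. The KO mean as a percent of the WT mean ran from 0.225 to 12.5% with a median of 2.39% in the MJ041 libraries, and from 0.511 to 7.77% with a median of 2.78% in the vehicle libraries that chose the genes. Across the 40 genes the 2 shares had a Spearman rho of 0.85, a description across genes that are not independent replicates. Under MJ041 8 genes kept less than 1%, 17 less than 2% and 28 less than 4%. The level and fold of the rule, applied to the MJ041 libraries, were met by 34 of the 40 genes and by 0.432% of the other genes with that level. Those other genes include the families left out by symbol. Hcar2 (12.5%), Entpd8 (8.74%), Mup3 (8.35%) and Mbl2 (8.34%) exceeded the 8% limit there, and Slc6a19 and ENSMUSG00000118516 fell under 5 CPM in a WT library. The vehicle values put Mbl2 (7.50%), Aldh8a1 (7.59%) and Ripply1 (7.77%) just inside the limit and Cxcl2 (8.22%), Spp2 (8.78%) and Them7 (9.05%) just outside it.

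**Figure D3:**
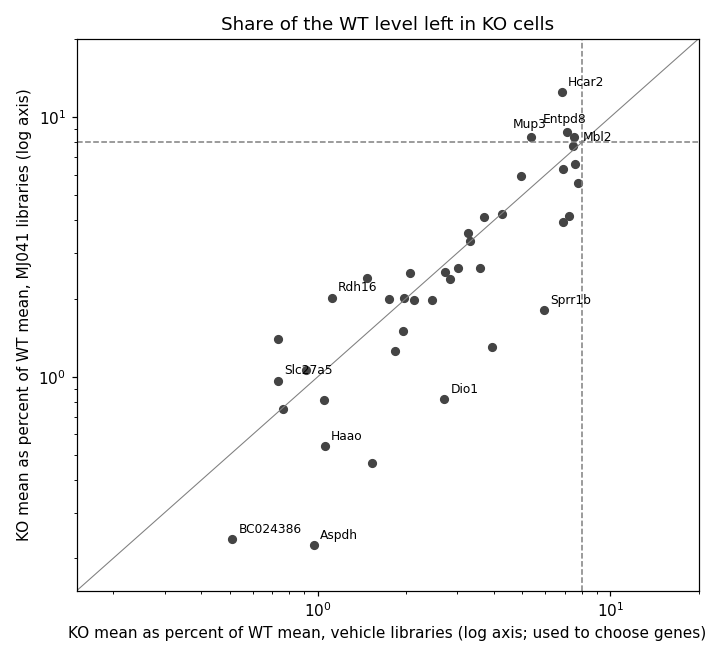
KO mean as a percent of the WT mean for each of the 40 genes, in the vehicle libraries that chose them (horizontal log axis) and in the MJ041 libraries (vertical log axis). Dashed lines mark the 8% limit of the rule and the thin line marks equal shares. Hcar2, Entpd8, Mup3 and Mbl2 lie above the limit under MJ041.

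With MJ041, 34 of the 40 genes in WT cells lay within 0.5 of their vehicle level on the log2 scale, a share near the 86.1% of all tested genes, and 26 of the 40 did in KO cells, where their counts were low, against 95.8% of all tested genes. These comparisons share the vehicle libraries with the rule, so that a gene chosen for a high WT vehicle or a low KO vehicle value is not judged independently here. In WT cells 2 of the 40 genes were called lower with MJ041 and none higher (edgeR; 1.02% and 1.19% of all tested genes), and 8 had an unadjusted p below 0.05, against 21.6% of all tested genes. These were Prg4, Mup3, Hcar2, C9 and ENSMUSG00000118516 with lower values and Hrg, F12 and Slc27a5 with higher ones. DESeq2 called the same 2 genes lower and none higher. The median log2 fold change, MJ041 over vehicle, was 0.10 over the 40 genes and 0.03 over all tested genes. Prg4 had 370, 400 and 587 CPM in WT MJ041 libraries and 950, 633 and 833 CPM in WT vehicle libraries (-0.78 ± 0.16, adjusted p = 0.037). Mup3 had 321, 309 and 449 CPM in WT MJ041 libraries and 634, 461 and 583 CPM in WT vehicle libraries (-0.58 ± 0.14, adjusted p = 0.0497). For both genes every MJ041 library was below every vehicle library, and the first and second MJ041 libraries were the lowest. The same 2 libraries also had the lowest sums of other liver cell markers: stellate cell markers (19 genes) summed to 98.3 to 168 CPM in WT MJ041 and 162 to 201 CPM in WT vehicle libraries, Kupffer cell markers to 185 to 424 and 276 to 568 CPM, and endothelial markers (18 genes) to 173 to 343 and 290 to 477 CPM. With these markers as a covariate the values were -0.58 (adjusted p = 0.12) for Prg4 and -0.38 (adjusted p = 0.17) for Mup3. Without the first and second WT MJ041 libraries together they were -0.45 and -0.31 (adjusted p = 1.0 for both), and in the 6 WT libraries alone -0.80 and -0.61 (adjusted p = 0.18 for both). Leaving out single libraries ended the Prg4 call without KO MJ041 library 3, KO vehicle library 1 or 3, WT MJ041 library 1 or 2, or WT vehicle library 1 or 3 (adjusted p from 0.054 to 0.20), and the Mup3 call without any library except WT MJ041 library 3 or WT vehicle library 2 (adjusted p from 0.056 to 0.25).

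Hcar2 had the lowest fold change with MJ041 in WT cells. It had 18.6, 9.37 and 27.6 CPM in WT MJ041 libraries and 37.7, 28.7 and 53.5 CPM in WT vehicle libraries (-1.06 ± 0.32), without overlap, which did not pass the test (adjusted p = 0.089). With the replicate number as a block it passed (-1.11, adjusted p = 0.018), although in WT cells same-numbered libraries were not always the most alike. Among genes with higher values, Sprr1b (0.61 ± 0.35) and Car3 (0.40 ± 0.19) did not pass the test, and Car3 had 415, 425 and 399.6 CPM in WT MJ041 libraries and 270, 346 and 365 CPM in WT vehicle libraries without overlap.

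In KO cells none of the 40 genes was called with MJ041 at an adjusted p below 0.05 by edgeR or by DESeq2 (0.0% of all tested genes were called by edgeR in either direction). An unadjusted p below 0.05 was reached by 3 of the 40 genes and by 2.77% of all tested genes, and the 3 were C8g (-0.51 ± 0.17), Lipc (-0.65 ± 0.22) and Dio1 (-1.72 ± 0.64). KO levels of Serpina1b were 29.9, 17.9 and 21.0 CPM with MJ041 and 32.1, 16.6 and 19.5 CPM with vehicle (0.02 ± 0.22), and those of Mup3 were 26.1, 33.9 and 30.2 CPM and 26.3, 33.1 and 30.5 CPM (0.00 ± 0.16). In both genes the libraries of the 2 treatments covered overlapping ranges, and the numbered libraries kept the same order. The test in KO cells did not pair libraries by number. The difference in response between KO and WT cells, tested as an interaction (KO minus WT response), was called for none of the 40 genes by edgeR (0.0% of all tested genes). An unadjusted edgeR p below 0.05 was reached by 6 of the 40 and 13.3% of all tested genes. DESeq2 called 1 of the 40, Lipc (-0.86, adjusted p = 0.043). The share of all tested genes that DESeq2 called is not given here, so this single call cannot be set against it. Lipc had 2.57, 2.19 and 3.21 CPM in KO MJ041 libraries and 2.74, 4.85 and 4.90 CPM in KO vehicle libraries, next to 68.4, 61.3 and 61.8 CPM in WT MJ041 libraries and 53.7, 55.0 and 64.3 CPM in WT vehicle libraries. Hnf4a itself did not pass the test with MJ041 in WT cells (0.39 ± 0.10, adjusted p = 0.062).

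**Figure D4:**
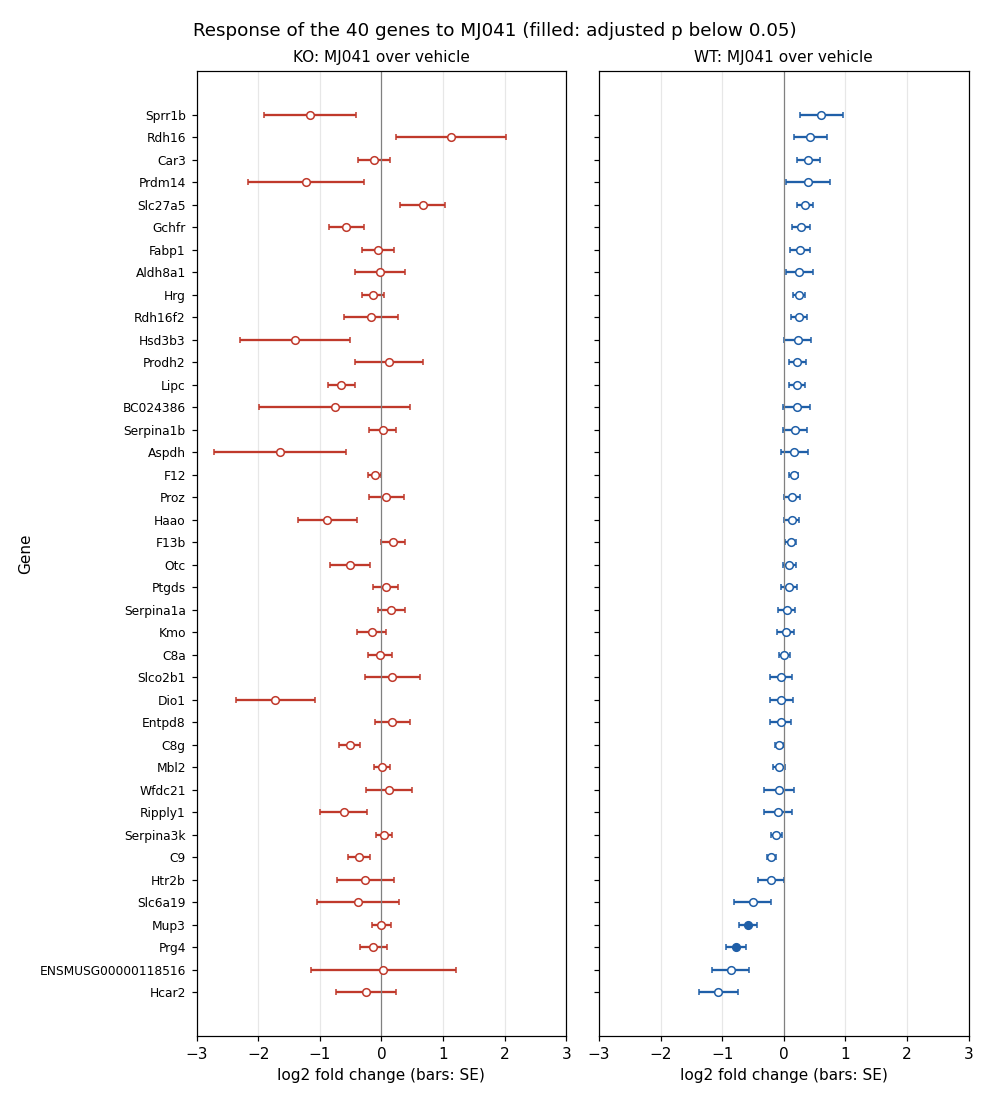
Log2 fold change of MJ041 over vehicle for each of the 40 genes in KO cells (left panel) and in WT cells (right panel), with SE as bars and 3 libraries per group. Filled points have an adjusted p below 0.05 and open points do not. Prg4 (-0.78) and Mup3 (-0.58) in WT cells are the filled points, and the widest bars in KO cells belong to genes with few counts there.

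The 40 genes were scattered over the genome, and more of their neighbours were lower than higher in KO cells. Those with a position lay on 18 chromosomes, with at most 5 on any of them. Ptgds and C8g, and Rdh16 and Rdh16f2, were the pairs next to each other among tested genes. Of 74 tested neighbours outside the set, 32 were lower in KO MJ041 cells (43.2%, against 27.6% of all tested genes). Higher values were called for 13 of the 74, where 26.8% of all tested genes were called higher. The median log2 fold change of the 74 was -0.30. Hao2, a peroxisomal oxidase gene next to Hsd3b3, had 0.0192 CPM in KO and 4.13 CPM in WT cells (-7.33), and Nlrp6, an inflammasome sensor gene next to BC024386, had 0.0397 and 4.87 CPM (-6.78). Both had under 5 CPM in WT MJ041 cells, and their WT vehicle levels, on which the rule was set, are not given here. On the other side, Serpina6, next to Serpina1b, was higher in KO cells (3.60 ± 0.15). Exons of Prg4, Slco2b1, Entpd8, Hsd3b3 and Htr2b overlap a gene on the opposite strand, and the strand setting of the counting is not given in the sources used here. Exons of Rdh16 overlap Rdh18-ps on the same strand, as those of Serpina3k overlap Serpina3m. How the counting treated reads in such overlaps is not given there either.

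Over all 12 lists of liver genes, 25 genes of the set stood beside 488 other tested genes. Of these others 231 (47.3%) were lower and 146 (29.9%) were higher in KO MJ041 cells, with a median of -0.24. Of all tested genes 27.6% were lower and 26.8% higher. No gene of the set was among the listed transcription factors (22 lower and 18 higher of 54) or among glucose, fructose and glycogen enzymes (16 lower and 9 higher of 29). Of 49 other detoxification genes tested outside the excluded families 16 were lower and 21 higher. Cat, catalase, was lower in KO than in WT cells under MJ041 (-0.29 ± 0.10, adjusted p = 0.024). With vehicle its KO over WT value was 0.15 ± 0.10 (adjusted p = 0.24). Mt1, a metallothionein, was also lower in KO than in WT cells under MJ041 (-0.94 ± 0.18, adjusted p = 0.00055). Gstm3, a glutathione transferase, was higher in KO MJ041 cells at 160 ± 9.33 CPM, against 6.17 ± 2.67 CPM in WT MJ041 cells.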

How the data were processed

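RNA from 12 libraries of mouse primary hepatocytes, 3 in each of 4 groups, was measured with a stranded library kit, per the labels' protocols. The deposited table holds raw counts per gene for all 12 libraries, and per the submitters' processing notes FastQC, Trimmomatic, STAR 2.7.10b, featureCounts and DESeq2 were used with the mouse build mm39. Strand, overlap and multi-mapping settings of the counting are not given in the sources used here. Genes are Ensembl identifiers, and symbols, exon lengths and neighbours were taken from GRCm38 annotation, so no gene coordinates are given; promoter positions are those of the RefSeq table of GRCm38.p6. CPM divided each count by its library total (16740761 to 17902832 counts).

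Tests used edgeR 4.0.16 (filterByExpr with a minimum count of 10, TMM, quasi-likelihood, all 12 libraries in 1 fit with a coefficient per group) in R 4.3.3, with Benjamini-Hochberg adjustment over 14919 genes and a threshold of 0.05. SE is the log2 fold change divided by the root of F, and values after ± beside CPM are SD (n = 3). Scripts were tested on simulated counts. Alternatives were DESeq2 1.42.0, RLE scaling, no filter, smaller sets of libraries, single libraries left out, a block for the replicate number and a covariate from other liver cell markers. No pair of libraries agreed within sampling noise.

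The 40 genes, the gene lists, the motifs and the tests were chosen with earlier results of these data known, and family or pathway partners and role groups were set after the 40 genes were known. All 40 genes are named; other genes of a list are the 2 with the highest WT MJ041 level and the called gene with the largest rise. A planned ranking of genes by correlation with the set over the 12 libraries is not given, because the libraries fall into 2 genotype clusters.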

Additional observations from a re-analysis of the deposited data

How the results depend on the processing

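Under each alternative run, all 40 genes remained lower in KO than in WT cells under MJ041, and leaving out single libraries moved their median between -5.70 and -5.38. For MJ041 in WT cells, the 2 lower calls became 1 with RLE scaling, 0 with the marker covariate, 0 in the 6 WT libraries alone, 0 without WT_MJ041 replicates 1 and 2 together and 4 with no filter on low counts, and ranged from 0 to 4 when single libraries were left out, with 4 without WT_MJ041 replicate 3. The higher calls, 0 in the report, became 5 with no filter and ranged from 0 to 1 without single libraries. Calls over all tested genes in that comparison were 329 by edgeR, 894 by DESeq2, 1667 with no filter, 649 with the replicate block, 2059 without WT_MJ041 replicate 3 and 31 to 574 without the other single libraries not named next, and 0 with the marker covariate, in the 6 WT libraries alone, without WT_MJ041 replicates 1 and 2 together, or without KO_MJ041 replicate 3, KO_VEH replicate 1 or 3, WT_MJ041 replicate 2 or WT_VEH replicate 1. The interaction was called for 1 gene of the set by DESeq2 and for 5 with no filter, and for 0 to 1 without single libraries. Shares of all tested genes called for the interaction in these runs are not given here. MJ041 in KO cells gave 0 calls under every alternative run. The cause of these changes was not tested.

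The replicate block gave 40 lower calls for KO against WT under MJ041 and 3 lower calls for MJ041 in WT cells, with Hcar2 added. Correlations of same-numbered libraries ran from -0.099 to 0.499 in the pairs of groups checked. WT MJ041 replicate 1 correlated best with WT vehicle replicate 2 (0.445), so that the numbers were not taken as pairing over the series. In KO cells, however, each MJ041 library correlated best with the vehicle library of its number (0.349, 0.458 and 0.039 for replicates 1, 2 and 3). No block was fitted to the KO libraries alone. A minimum of 1 CPM in place of 5 in the rule gave 70 genes, a limit of 12% gave 52 and of 4% gave 27; leaving out single vehicle libraries gave 36 to 45 genes, of which 36 to 40 were of the set. In the MJ041 libraries the rule held for 34 to 36 of the 40 without single libraries. In the 250 bases before the start alone, 6.25% of the genes (2 of 32; Hsd3b3 dropped out) held an HNF4 motif, against 1.37% of other tested genes and 1.25% of all. Genes with 1 to 3 counts in KO cells limit the precision of the lowest fold changes.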

Other observations

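Sprr1b, Prdm14 and Ripply1 varied together among WT libraries. Sprr1b had 68.0 and 71.1 CPM in WT MJ041 replicates 2 and 3 and 61.3 CPM in WT vehicle replicate 3, against 24.7 to 27.7 CPM in the other WT libraries. Prdm14 had 24.5, 29.1 and 27.7 CPM in the same 3 libraries and 9.96 to 11.7 CPM in the others. Ripply1 was less divided, with 19.0, 24.7 and 28.9 CPM in these libraries and 14.0 to 18.4 CPM in the others. This pattern was noticed in the data and cuts across both treatments, and it was not tested.

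Among KO libraries, 15 of the 40 genes were highest in replicate 1 of both treatments, where 21.6% of all tested genes were, and Wfdc21 was lowest there, at 2.81 CPM with MJ041 and 2.92 CPM with vehicle. Hcar2, Slc6a19 and ENSMUSG00000118516 had coefficients of variation of 49.1, 47.9 and 45.8% in WT MJ041 libraries and of 31.4, 18.7 and 19.9% in WT vehicle libraries.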
